A study of Homo sapiens with 6 samples.

Results

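The clustered protocadherins were taken as the rows of the gene count table that lie on chromosome 5 and whose gene name begins with PCDHA, PCDHB or PCDHG. The rule used names and positions only, and found 58 of the 21494 genes of the table, 16 in the alpha, 18 in the beta and 24 in the gamma cluster. All of them are on the plus strand of hg38, between positions 140786136 and 141512977, a stretch of 0.727 Mb in which the alpha cluster comes first, then the beta and then the gamma cluster. In GENCODE release 44 the same rule gives 60 genes, the other two being PCDHB1 and its antisense gene PCDHB1-AS1, which are not analysed here.

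Clustered protocadherins are cell surface proteins of the cadherin superfamily that pair with like molecules on neighbouring cells, and they are best known from neurons, where each cell uses its own subset so that its branches can tell themselves from those of other cells. Every alpha and gamma gene has a promoter and a large variable exon of its own, which encodes the extracellular part and is spliced to constant exons shared by the whole cluster, while beta genes consist of a single exon. Promoter choice in this locus is known to depend on CTCF and cohesin, which loop promoters to distant enhancers, and on DNA methylation of the promoters and exons that stay silent.

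RNA-seq was analysed for 6 libraries, 3 of cells labelled shControl (Control sh) and 3 of cells labelled shDCAF1 (VprBP sh), which carry an shRNA against DCAF1, the gene of the kinase VprBP. The genotype label reads WT for Control sh and DCAF1 Knockdown for VprBP sh, and the study's methods describe stable lines made by lentiviral infection and puromycin selection, so that any other difference between the 2 lines cannot be told apart from the shRNA. By their labels the cells are of the human melanoma line G361, while the field for the source reads LD611. Nothing says whether the replicates were separate cultures, so the p-values measure only the spread between these samples.

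DCAF1 itself had normalized counts (estimated counts divided by an upper quartile scaling factor) of 797.4, 970.7 and 838.1 in Control sh and 760.3, 507.1 and 481.4 in VprBP sh, with log2 fold change -0.58 and an adjusted p of 0.0125 in edgeR, below the fold change of 2 that a call needed here. Of 9 melanocyte markers, 5 had a row, their summed normalized count ranged over 234.8 to 287.4 for Control sh and 309.6 to 395.3 for VprBP sh, and MLANA, a defining melanosome gene, had at most 5 counts in any library. The melanocyte sum was mostly MITF (log2 fold change 0.46), and of the 3 melanocyte markers tested 0 were called. Of 10 urothelial markers, 8 had a row and they summed to between 96985.9 and 110248.6 for Control sh and between 25098.0 and 28542.5 for VprBP sh. That sum was mostly KRT5 and KRT7, and the list moved both ways: KRT5, KRT13, UPK1B and UPK2 were called lower, KRT5 from a mean of 64989.0 to 3487.7, while GATA3, from 3.07 to 1528.7, and PPARG (log2 fold change 1.39) were called higher. Neural markers, 6 of 8 with a row, summed to 1144.0 to 1350.1 and 1135.6 to 1192.8, with RBFOX3, a defining gene of mature neurons, at 9 counts or fewer in every library. All 5 neural markers tested were nevertheless called, TUBB3 (-2.10), NCAM1 (-2.80) and GFAP (-1.75) lower and MAP2 (2.51) and SYP (2.38) higher on the log2 scale. Fibroblast markers, 4 of 5 with a row, summed to 754.6 to 803.3 and 456.6 to 601.7. That sum was mostly COL1A1, which was not called (log2 fold change -0.33). The others were called lower: COL1A2 (-6.56), PDGFRB (-2.85) and LUM, from a mean of 27.8 to 0. The groups also differed in genes that were present in one and near absent in the other: 135 genes of the table had at least 100 counts in every VprBP sh library and at most 3 in every Control sh library, and 354 had the reverse pattern. Whether the 2 groups are otherwise the same cells was not tested, and their part in the results below was not tested either.

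Sequence around the start sites of the members is shown first, because short elements recur among the promoters of each cluster. The RefSeq promoter table (build GRCh38.p14, 250 bases before to 50 after each start) held windows for 46 of the 58 members, and 12 had none: PCDHA3, PCDHA13, PCDHA14, PCDHB6, PCDHB11, PCDHB17P, PCDHB18P, PCDHB19P, PCDHGA12, PCDHGB8P, PCDHGB9P and PCDHGC5. Protocadherin promoters are known for a conserved element around the letters CGCT that CTCF binds. Searched on both strands, the letters GTGGCGCT were in the windows of all 13 beta genes that had one, and in 1.15% of all 35116 windows of the table. GATGTCGCT was found in 9 of 13 alpha genes with a window and in 0.105% of all windows, and CGNCGCTGT in 12 of 20 gamma genes and in 1.27% of all windows. These motifs overlap each other in the 4 letters CGCT, which alone were in 70.0% of all windows. The alpha matches began at -86 to -43 relative to the start, the beta matches at -83 to -1 and the gamma matches at -223 to -43. The shorter letters CGCTGT, also searched, were in 17 of 20 gamma, 7 of 13 alpha and 1 of 13 beta genes and in 11.2% of all windows. The letters were set for each cluster, and their shares there were not tested.

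In the 41 bases around the element, with the matched letters in capitals, genes that were higher, lower and not called in VprBP sh can be read side by side. The first 3 are alpha genes that rose, at chr5:140794779-140794819, chr5:140875242-140875282 and chr5:140786084-140786124, all on the plus strand of GRCh38.p14.
PCDHA2: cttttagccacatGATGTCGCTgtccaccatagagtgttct
PCDHA12: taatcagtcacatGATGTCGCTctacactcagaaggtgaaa
PCDHA1: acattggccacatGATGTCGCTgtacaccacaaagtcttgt
Of the beta genes shown next, PCDHB2 at chr5:141094542-141094582, PCDHB16 at chr5:141182308-141182348 and PCDHB8 at chr5:141177775-141177815 rose, PCDHB13 at chr5:141213863-141213903, PCDHB5 at chr5:141135177-141135217 and PCDHB7 at chr5:141172564-141172604 fell, and PCDHB12 at chr5:141208641-141208681 was not called.
PCDHB2: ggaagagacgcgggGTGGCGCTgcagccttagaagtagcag
PCDHB16: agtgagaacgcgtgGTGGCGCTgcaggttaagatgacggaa
PCDHB8: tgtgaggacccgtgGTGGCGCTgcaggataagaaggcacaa
PCDHB13: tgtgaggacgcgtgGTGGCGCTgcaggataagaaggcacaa
PCDHB5: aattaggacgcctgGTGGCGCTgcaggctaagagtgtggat
PCDHB7: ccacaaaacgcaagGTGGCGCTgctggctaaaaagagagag
PCDHB12: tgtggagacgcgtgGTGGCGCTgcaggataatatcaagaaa
Of the gamma genes, PCDHGB5 at chr5:141397861-141397901, PCDHGB4 at chr5:141387615-141387655 and PCDHGA7 at chr5:141382647-141382687 rose, PCDHGB2 at chr5:141359919-141359959 fell and PCDHGA10 at chr5:141412929-141412969 was not called.
PCDHGB5: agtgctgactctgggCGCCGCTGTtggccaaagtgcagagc
PCDHGB4: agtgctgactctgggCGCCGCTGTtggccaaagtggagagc
PCDHGA7: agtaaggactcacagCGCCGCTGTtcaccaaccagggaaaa
PCDHGB2: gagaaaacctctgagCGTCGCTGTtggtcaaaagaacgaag
PCDHGA10: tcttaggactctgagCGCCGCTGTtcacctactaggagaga
The beta and gamma elements were thus present in genes of either direction. Of the alpha genes with a window, the alpha element was in 5 of 7 called higher and in 0 of 1 called lower. Called higher without it were PCDHA11 and PCDHAC1, and the stretches above show only alpha genes that have it. Among the beta genes the beta element was in all 7 called higher, all 3 of those called lower that had a window and all 3 not called. Among gamma genes the gamma element was in 7 of 12 called higher, 1 of 2 called lower and 4 of 6 not called. A match of letters is a description and not a measured site.

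Over the members, expression was higher in VprBP sh for most genes and lower for a few. Of the 58 members, 46 passed the filter on low counts, and 29 of these (63.0%) were called higher and 7 (15.2%) lower, at an adjusted p below 0.05 in edgeR's quasi-likelihood test and a fold change over 2. Over all genes tested, 24.5% were called higher, 22.0% lower and 46.4% in either direction. The filter favours differences: 20 of the 46 reached it in one group only, and of these 18 were called higher and 2 lower. Of the other 26, 11 were called higher, 5 lower and 10 in neither direction. The median log2 fold change was 1.94 over the 46 members, 0.83 over those 26, and 0.08 over all genes tested. That last median depends on the scaling, and was -0.01 with TMM factors, -0.04 in DESeq2 and 0.29 with library size alone, while the 36 members called were the same with TMM factors and in DESeq2 and 2 more were called higher with library size alone.

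Without the filter on low counts, all 58 members can be placed by their 6 values. The table itself holds no gene with under 10 counts summed over the libraries. Members at 0 in Control sh thus have a row through VprBP sh only. The VprBP sh values lay above all Control sh values in 39 members and below them in 8, and overlapped in 11. Among the members tested, the numbers were 31 above and 8 below, against 42.2% above and 37.3% below over all genes tested. In the Control sh libraries 5 members, PCDHA4, PCDHA6, PCDHA9, PCDHB17P and PCDHGB9P, had a count of 0 throughout, and 13 had at most 3 counts in each library, while in VprBP sh no member did either. The shares of all genes of the table at such counts are not given here, so these numbers are a description only. A stricter rule asked for at least 100 counts in every library of one group and at most 3 in the other. By it 1 member was present in VprBP sh only and 0 in Control sh only, beside 135 and 354 genes of the table. In the plot of every member by sample, the groups do not overlap in most members, as was also so for most of all genes tested.

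**Figure D1:**
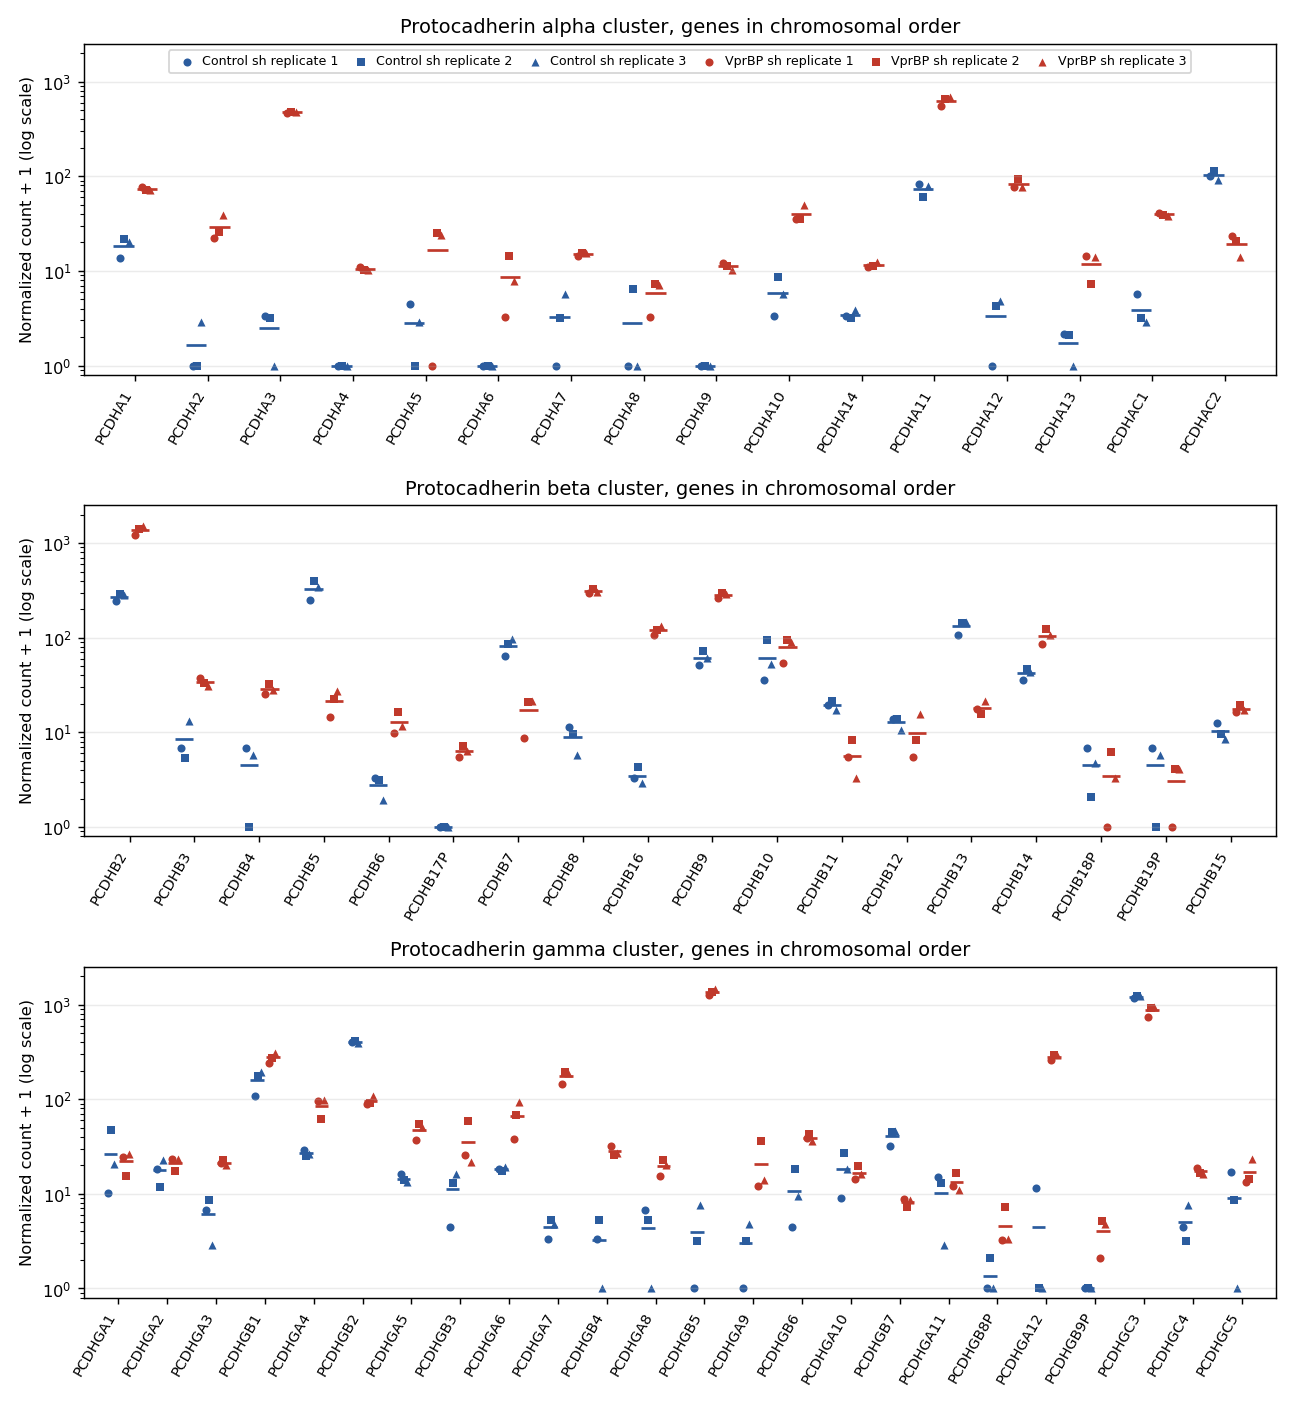
Normalized count of each member, plus 1, on a log axis, with genes of the alpha, beta and gamma cluster in chromosomal order. Blue points are the 3 Control sh and red points the 3 VprBP sh replicates, and short lines mark the group means. The VprBP sh points lie above all Control sh points in 39 members and below them in 8.

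Summed over each cluster, the 3 clusters rose by different amounts. The alpha cluster had summed normalized counts of 212.5, 218.5 and 210.5 in the Control sh replicates and of 1343.7, 1508.0 and 1531.0 in VprBP sh, or 213.8 ± 4.17 against 1460.9 ± 102.1 (SD, n = 3). For the beta cluster the values were 863.8, 1180.5 and 1086.1 against 2151.5, 2547.2 and 2611.5, and for the gamma cluster 1871.9, 2071.9 and 2014.7 against 3160.9, 3613.9 and 3786.1. The log2 ratios of the means were 2.77 for alpha, 1.22 for beta and 0.83 for gamma, and in each cluster every VprBP sh sample was above every Control sh sample. These sums are values without a test. In bulk RNA, fewer cells using a gene and less RNA per cell cannot be told apart.

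**Figure D2:**
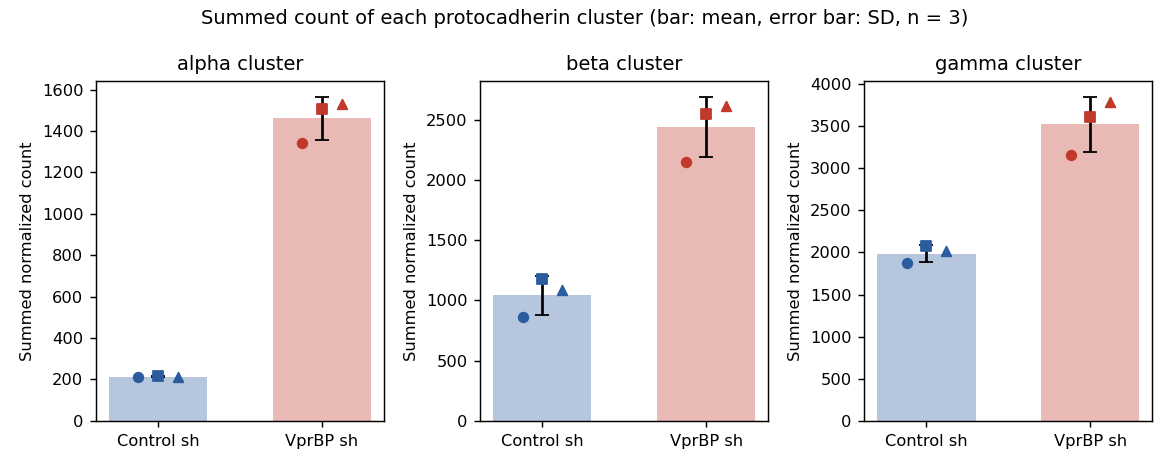
Summed normalized count of the members of each cluster. Bars are means with SD (n = 3) and points are replicates, with a separate axis from 0 for each cluster, and the groups do not overlap in any cluster.

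The alpha cluster was low in Control sh and carried the largest relative rise. Of its 16 members, 10 were tested, and 9 were called higher and 1, PCDHAC2, lower, beside 24.5% and 22.0% over all genes tested. The median of the 10 members was 3.04 on the log2 scale. Of these 10, 7 had reached the filter in one group only. PCDHA3 (ENSG00000255408.4, 140801028 to 141012347) had normalized counts of 2.32, 2.17 and 0 (Control sh) against 462.2, 481.1 and 475.3 (VprBP sh). Its summed counts differed 335.8-fold, with a 95% exact binomial interval of 130.9 to 1234.0 that covers counting error only. PCDHA11 (ENSG00000249158.7, 140868183 to 141012347) was the most abundant alpha gene of the tandem array in Control sh, at 82.3, 58.7 and 77.7, and it reached 549.3, 650.5 and 679.9 in VprBP sh (log2 fold change 3.10 ± 0.16 (SE), edgeR adjusted p = 1.32e-07). Together PCDHA3 and PCDHA11 made up most of the alpha signal of VprBP sh, at 32.4% and 42.8% of the cluster's summed count, against 0.595% and 34.1% in Control sh. The log2 fold change of PCDHA3 was 8.27, and 7.64 without Control sh replicate 3, which had no count.

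Other alpha genes rose from few or no counts. PCDHA12 was at 0, 3.26 and 3.79 normalized counts under Control sh and at 77.0, 92.5 and 76.7 in VprBP sh, a 33.1-fold difference in summed counts (15.8 to 83.1). PCDHA1, the first gene of the cluster, went from 12.7, 20.7 and 19.0 to 75.9, 70.7 and 70.5, with log2 fold change 2.04. PCDHA2 went from 0, 0 and 1.9 to 21.2, 24.9 and 37.6, a 41.3-fold difference (11.1 to 345.9), with log2 fold change 5.10, or 7.81 without Control sh replicate 3, which held all of the control counts. All 3 kept a clear gap between the groups. PCDHA10 went from 2.32, 7.61 and 4.74 to 34.6, 34.3 and 49.1 and PCDHA7 from 0, 2.17 and 4.74 to 13.4, 14.5 and 14.6, and both were called higher. For PCDHA7 the summed counts differed 5.77-fold (2.58 to 15.2), and the log2 fold change was 2.48, or 3.52 without Control sh replicate 3. PCDHA14, whose annotated sequence has no 50-base stretch that other members lack (0%), had 2.32, 2.17 and 2.84 against 10, 10.4 and 11.5, so that its reads cannot be told from theirs. The untested alpha genes were PCDHA4, PCDHA5, PCDHA6, PCDHA8, PCDHA9 and PCDHA13. Of these PCDHA13 had 1.16, 1.09 and 0 in Control sh and 13.4, 6.23 and 13.0 in VprBP sh, and PCDHA5 had 3.48, 0 and 1.9 against 0, 23.9 and 23.0, with overlapping groups. PCDHA8 also overlapped, with means of 1.81 and 4.87. PCDHA9, at 0 in Control sh, had 11.2, 10.4 and 9.2 in VprBP sh. PCDHA4, PCDHA6 and PCDHA9, at 0 in Control sh, had VprBP sh means of 9.53, 7.55 and 10.3, and were at least 8.97-, 7.18- and 9.57-fold higher when set against 3 counts over the group.

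Both alpha C-type genes, which lie next to the constant exons and outside the tandem array, were called, in opposite directions. PCDHAC2 (ENSG00000243232.6, 140966470 to 141012347), known from serotonergic neurons where it keeps axons apart, was the leading alpha gene of Control sh at 100.8, 114.1 and 91.0, and had 22.3, 19.7 and 13.0 in VprBP sh (log2 fold change -2.49 ± 0.27, edgeR adjusted p = 1.84e-05). Its share of the cluster's summed count was 47.7% in Control sh and 1.27% in VprBP sh. PCDHAC1 had 4.64, 2.17 and 1.9 in Control sh and 40.2, 38.4 and 36.8 in VprBP sh, a 13.6-fold difference in summed counts (6.67 to 32.1). The GATGTCGCT element was in neither of their windows.

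In the beta cluster, whose genes share no constant exon and can be told apart best by their reads, genes rose and fell side by side. Of the 18 members, 14 were tested, with 7 called higher, 4 lower and 3 in neither direction, beside 24.5% higher and 22.0% lower over all genes tested. Of these 14, 4 had reached the filter in one group only: PCDHB4, PCDHB8 and PCDHB16 through VprBP sh and PCDHB11 through Control sh. PCDHB2 (ENSG00000112852.7, 141094606 to 141098703) was abundant in both groups, at 241.1, 288.1 and 282.5 in Control sh and 1210.3, 1401.7 and 1517.8 in VprBP sh (log2 fold change 2.35 ± 0.12, edgeR adjusted p = 1.49e-07). It held 26.1% of the beta signal in Control sh and 56.5% in VprBP sh. PCDHB5 (ENSG00000113209.9, 141135206 to 141138615) held 31.2% in Control sh, with 251.5, 394.6 and 338.5 normalized counts, and 0.825% in VprBP sh, with 13.4, 21.8 and 26.1 (log2 fold change -3.96 ± 0.26, edgeR adjusted p = 6.86e-07). PCDHB5 was thus the member with the largest drop among those tested.

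The other 3 beta genes called lower were PCDHB13, PCDHB7 and PCDHB11. PCDHB13 (ENSG00000187372.11, 141213919 to 141218979) went from 106.6, 141.3 and 146.0 to 16.7, 14.5 and 20.7, with log2 fold change -2.90 ± 0.25. PCDHB7 went from 62.6, 84.8 and 96.7 to 7.82, 19.7 and 20.7, and PCDHB11 from 18.5, 20.7 and 16.1 to 4.47, 7.27 and 2.3. Their groups did not overlap, although the VprBP sh values of PCDHB11 were near the level of 3 counts in a library, which was 2.30 to 3.48 normalized counts.

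Genes called higher lay next to genes called lower. PCDHB8 (ENSG00000120322.4, 141177790 to 141180539) and PCDHB16, next to each other and just after PCDHB7, were low in Control sh, at 10.4, 8.7 and 4.74 for PCDHB8 and 2.32, 3.26 and 1.9 for PCDHB16. In VprBP sh they had 298.1, 326.3 and 299.7 and 106.1, 120.5 and 131.1, with log2 fold changes of 5.28 ± 0.24 and 5.53 ± 0.32. PCDHB9, the next gene, went from 51.0, 70.7 and 60.7 to 263.5, 299.3 and 288.2, with log2 fold change 2.22. Among these neighbours all 3 rose, from different starting levels. PCDHB3 went from 5.8, 4.35 and 12.3 to 36.8, 32.2 and 29.9, PCDHB4 from 5.8, 0 and 4.74 to 24.6, 31.2 and 26.8, and PCDHB14 from 34.8, 45.7 and 42.7 to 84.9, 122.6 and 105.8. The summed counts of PCDHB16 differed 49.0-fold (23.5 to 122.6) and those of PCDHB4 7.81-fold (4.05 to 16.8), and the log2 fold change of PCDHB3 was 2.08, or 2.67 without Control sh replicate 3. PCDHB14 had the smallest called rise of the beta genes, log2 fold change 1.34, and did not pass when the test itself was against a 2-fold change.

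Of the beta genes not called, PCDHB10 had 34.8, 93.5 and 52.1 against 52.5, 94.6 and 88.9, with overlapping groups and a log2 fold change of 0.39 ± 0.36. PCDHB12 had 12.7, 13.0 and 9.48 against 4.47, 7.27 and 14.6, also overlapping. PCDHB15, the last beta gene, had 11.6, 8.7 and 7.58 against 15.6, 18.7 and 16.1, without overlap but with a log2 fold change of 0.86. Among the untested, PCDHB6 had 2.32, 2.17 and 0.948 against 8.93, 15.6 and 10.7, and the pseudogenes PCDHB17P, PCDHB18P and PCDHB19P had at most 6.23 normalized counts in any library. The beta cluster held both gains and losses within neighbouring genes, as the plot of fold change along the region shows. Over all genes tested, 46.4% were called in either direction.

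**Figure D3:**
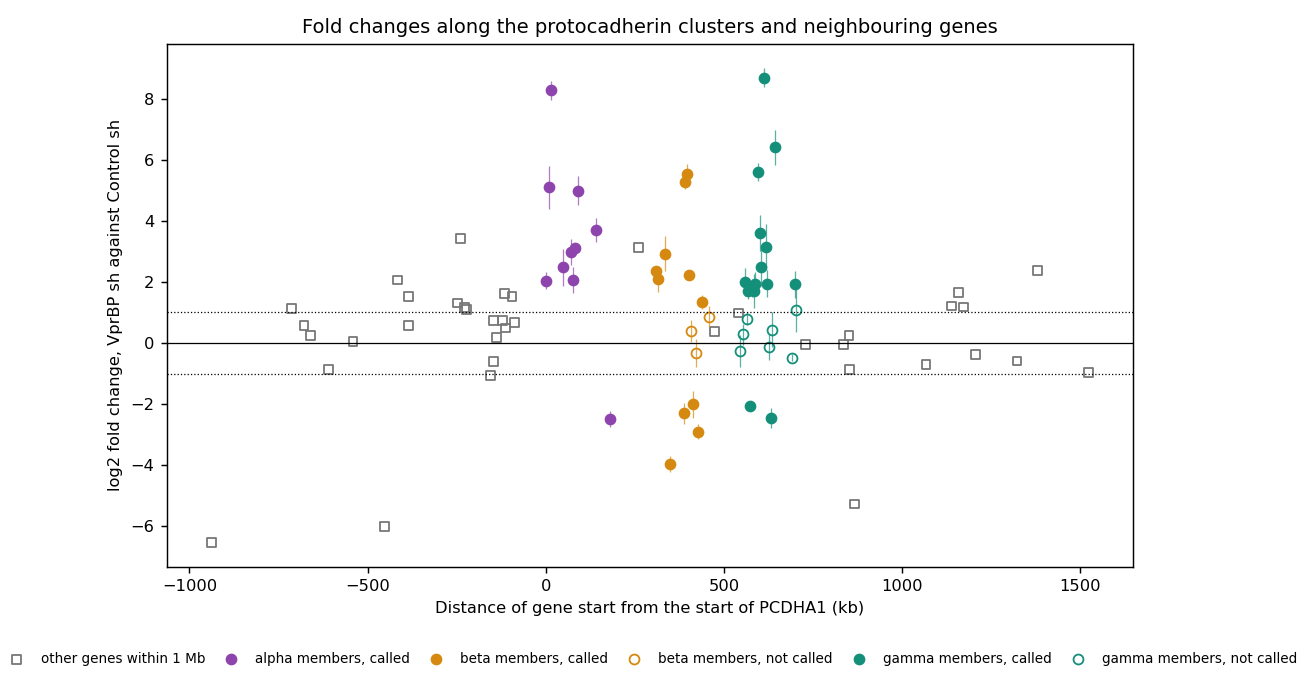
Log2 fold change of VprBP sh against Control sh for each tested gene, against the distance of its start from that of PCDHA1 in kb, with SE as error bars for members. Filled circles are members that were called, open circles members that were not, and grey squares the other tested genes within 1 Mb. Called members of the beta and gamma clusters lie on both sides of 0 within short distances, from -3.96 for PCDHB5 to 8.69 for PCDHGB5, and dotted lines mark a 2-fold change.

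Promoters were compared by the first window of each gene, while PCDHGB1, PCDHGB4, PCDHGB5, PCDHGB6 and PCDHGC4 had 2 windows each. PCDHB8 and PCDHB13 carried the most alike promoters among the 346 pairs of members of one cluster with a window. They had 243 identical of 259 bases aligned without gaps (93.8%), and they moved in opposite directions. Their windows, at chr5:141177540-141177839 and chr5:141213669-141213968 on the plus strand of GRCh38.p14, are given whole with the element in capitals.
PCDHB8: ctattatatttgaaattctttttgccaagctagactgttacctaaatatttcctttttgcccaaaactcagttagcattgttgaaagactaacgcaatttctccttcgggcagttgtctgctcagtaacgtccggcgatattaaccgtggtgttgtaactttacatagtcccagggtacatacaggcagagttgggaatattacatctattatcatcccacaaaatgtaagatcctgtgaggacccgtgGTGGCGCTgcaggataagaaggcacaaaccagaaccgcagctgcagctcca
PCDHB13: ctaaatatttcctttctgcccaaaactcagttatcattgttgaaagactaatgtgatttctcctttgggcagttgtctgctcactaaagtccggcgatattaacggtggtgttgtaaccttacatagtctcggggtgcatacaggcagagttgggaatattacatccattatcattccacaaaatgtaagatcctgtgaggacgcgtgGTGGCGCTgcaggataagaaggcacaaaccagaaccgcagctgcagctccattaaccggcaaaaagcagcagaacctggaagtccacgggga
The counts of this pair need care, since 54.4% of the 50-base stretches of PCDHB8 and 76.4% of those of PCDHB13 are in no other member, and the authors' estimates divide shared reads between genes.

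The gamma cluster had the highest summed count in both groups, and its leading genes differed between them. Of the 24 members, 22 were tested, with 13 called higher, 2 lower and 7 in neither direction, beside 24.5% higher and 22.0% lower over all genes tested. Of the 22, 9 had reached the filter in one group only. PCDHGB5 (ENSG00000276547.2, 141397947 to 141512975) was at 0, 2.17 and 6.64 normalized counts in the Control sh libraries and at 1273.9, 1348.7 and 1451.1 in VprBP sh. The summed counts differed 431.9-fold, with a 95% exact binomial interval of 227.3 to 945.1, and the fitted log2 fold change was 8.69 ± 0.32 (edgeR adjusted p = 1.33e-08), or 10.08 without Control sh replicate 3, which held most of the control counts. It made up 0.147% of the gamma signal in Control sh and 38.6% in VprBP sh.

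PCDHGC3 (ENSG00000240184.7, 141475947 to 141512977), a C-type gene known to be expressed widely outside neurons and to bind the Wnt regulator Axin1, was the leading gamma gene of Control sh at 1174.1, 1227.3 and 1227.8, and had 733.5, 920.6 and 943.6 in VprBP sh. The groups did not overlap, and its log2 fold change of -0.48 ± 0.11 (edgeR adjusted p = 0.00297) was short of a 2-fold change. Its share of the cluster's summed count was 61.0% in Control sh and 24.5% in VprBP sh, the latter with the larger cluster total. The other C-type genes were low. PCDHGC4, known for its role in the survival of inhibitory neurons, went from 3.48, 2.17 and 6.64 to 17.9, 15.6 and 15.3 and was called higher. PCDHGC5 had 16.2, 7.61 and 0 against 12.3, 13.5 and 22.2, with overlapping groups.

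The gamma A genes moved in one direction where they were called: of 12 tested, 8 were called higher, 0 lower and 4 in neither direction. Over all genes tested the shares were 24.5% higher and 22.0% lower. Of the 12, 5 had reached the filter through VprBP sh only and could hardly be called lower: PCDHGA3, PCDHGA7, PCDHGA8, PCDHGA9 and PCDHGA12. PCDHGA12 went from 10.4, 0 and 0 to 260.1, 290.9 and 289.0, an 88.7-fold difference in summed counts (46.5 to 194.7), with all the Control sh counts in replicate 1. PCDHGA7 went from 2.32, 4.35 and 3.79 to 145.1, 192.2 and 187.0, a 50.2-fold difference (27.1 to 105.2). Both genes were near absent in Control sh and among the leading members in VprBP sh. PCDHGA4 went from 27.8, 23.9 and 25.6 to 93.8, 61.3 and 96.6, PCDHGA6 from 17.4, 16.3 and 18 to 36.8, 66.5 and 93.5, and PCDHGA5 from 15.1, 13.0 and 12.3 to 35.7, 54.0 and 49.8. These 3 were called with log2 fold changes of 1.70, 1.94 and 1.79. PCDHGA3 went from 5.8, 7.61 and 1.9 to 20.1, 21.8 and 19.2, PCDHGA8 from 5.8, 4.35 and 0 to 14.5, 21.8 and 19.2, and PCDHGA9 from 0, 2.17 and 3.79 to 11.2, 35.3 and 13.0, also called higher. The summed counts of PCDHGA8 differed 5.88-fold (2.90 to 13.5) and those of PCDHGA9 9.12-fold (3.96 to 25.8). Single libraries moved 3 of these log2 fold changes by over 1.5 times on the linear scale. That of PCDHGA12 was 6.40, or 11.17 without Control sh replicate 1 and 5.75 without replicate 3, that of PCDHGA8 was 2.49, or 3.11 and 1.85 without the same replicates, and that of PCDHGA9 was 3.15, or 3.99 without Control sh replicate 3 and 2.47 without VprBP sh replicate 2.

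The 4 gamma A genes not called had overlapping groups. PCDHGA1 had 9.27, 46.7 and 19.9 in Control sh and 23.4, 14.5 and 25.3 in VprBP sh, PCDHGA2 had 17.4, 10.9 and 21.8 against 22.3, 16.6 and 22.2, PCDHGA10 had 8.11, 26.1 and 17.1 against 13.4, 18.7 and 15.3, and PCDHGA11 had 13.9, 12.0 and 1.9 against 11.2, 15.6 and 9.97. Their log2 fold changes were between -0.25 and 0.43, and their standard errors between 0.35 and 0.57, and the sign for PCDHGA10 turned positive when samples were scaled by library size alone.

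The 7 gamma B genes were the ones that split, with 4 called higher and 2 lower, beside 24.5% and 22.0% over all genes tested. Of these 7, 3 had reached the filter in one group only. PCDHGB2 (ENSG00000253910.3, 141359994 to 141512975) went from 396.4, 412.0 and 386.8 to 87.1, 90.4 and 108.1, with log2 fold change -2.06 ± 0.14 (edgeR adjusted p = 7.26e-07), and its share of the gamma signal from 20.1% to 2.70%. PCDHGB7 went from 31.3, 43.5 and 45.5 to 7.82, 6.23 and 7.67, with log2 fold change -2.45 ± 0.33. Both were lower in every VprBP sh sample. PCDHGB6 went from 3.48, 17.4 and 8.53 to 38.0, 41.6 and 35.3 and PCDHGB3 from 3.48, 12.0 and 15.2 to 24.6, 58.2 and 20.7. The log2 fold change of PCDHGB6 was 1.94, or 2.6 without Control sh replicate 2. PCDHGB3 was called at log2 fold change 1.70 ± 0.55, and the call was lost without Control sh replicate 1 (1.31, adjusted p = 0.064) and without VprBP sh replicate 2 (1.10, adjusted p = 0.0918). PCDHGB1, abundant in both groups, had 106.6, 176.1 and 190.6 against 242.3, 274.3 and 308.9, without overlap and with log2 fold change 0.80 ± 0.21 (edgeR adjusted p = 0.00649), short of a 2-fold change. The pseudogenes PCDHGB8P and PCDHGB9P had at most 6.23 normalized counts in any library.

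PCDHGB4 is separated from PCDHGB5 by PCDHGA8 alone and has the promoter most like that of PCDHGB5, with 223 identical of 297 bases (75.1%), the next most alike pair after the beta pair above. It went from 2.32, 4.35 and 0 to 31.3, 24.9 and 26.1, a 12.9-fold difference in summed counts (5.67 to 36.0), with log2 fold change 3.61, or 4.54 without Control sh replicate 2 and 2.97 without replicate 3, so that both rose from near 0 while their levels in VprBP sh stayed far apart. Their first windows, at chr5:141387448-141387747 and chr5:141397697-141397996, are given whole.
PCDHGB4: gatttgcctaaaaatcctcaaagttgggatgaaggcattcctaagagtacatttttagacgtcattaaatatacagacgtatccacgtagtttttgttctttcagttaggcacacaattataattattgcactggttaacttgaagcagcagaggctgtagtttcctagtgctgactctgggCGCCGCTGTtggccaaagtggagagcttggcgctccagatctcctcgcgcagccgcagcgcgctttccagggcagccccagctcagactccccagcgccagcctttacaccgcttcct
PCDHGB5: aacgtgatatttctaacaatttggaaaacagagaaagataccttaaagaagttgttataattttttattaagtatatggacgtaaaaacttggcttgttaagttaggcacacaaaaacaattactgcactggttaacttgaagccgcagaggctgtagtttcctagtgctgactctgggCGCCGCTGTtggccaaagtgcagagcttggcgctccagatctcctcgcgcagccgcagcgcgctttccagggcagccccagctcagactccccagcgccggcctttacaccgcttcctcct
Only 28.9% of the 50-base stretches of PCDHGB4 and 45.2% of those of PCDHGB5 are in no other member, part of the rest being the 3 constant exons, 2177 bases long, that the 22 protein-coding gamma genes share. The alpha genes share 3 constant exons of 2869 bases in the same way. Reads from constant exons were divided between genes by estimation, and the counts of low alpha and gamma genes are uncertain to that extent.

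Per kb of exon, the order of the members changed between the groups. In Control sh the mean normalized count per kb was highest for PCDHGC3, at 222.8, then PCDHB5 at 96.2, PCDHGB2 at 82.8 and PCDHB2 at 66.0. In VprBP sh the order was PCDHB2 at 335.9, PCDHGB5 at 277.9, PCDHGC3 at 159.5, PCDHB8 at 112.0 and PCDHA11 at 99.7. Across the 58 members, Spearman's rho of the levels was 0.81 to 0.94 between samples of one group and 0.33 to 0.42 between samples of different groups. Within the beta cluster alone it was 0.92 to 0.97 and 0.29 to 0.44, within the gamma cluster 0.70 to 0.97 and 0.21 to 0.41, and within the alpha cluster 0.60 to 0.92 and 0.42 to 0.60. These are descriptions over genes, which share libraries and, in the alpha and gamma clusters, reads.

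**Figure D4:**
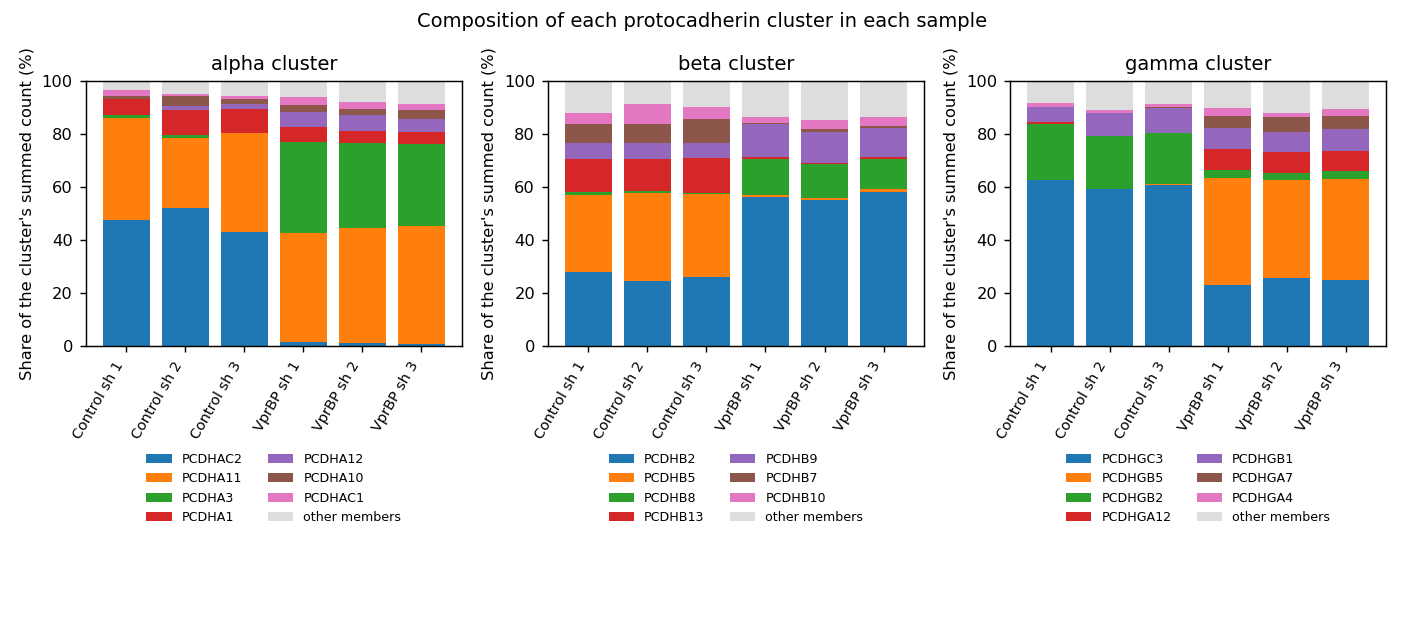
Share of each cluster's summed count taken by its 7 leading members and by the others, in percent, for each sample. In Control sh PCDHAC2, PCDHB5 and PCDHGC3 hold 47.7%, 31.2% and 61.0% on average, and in VprBP sh PCDHA11, PCDHB2 and PCDHGB5 lead with 42.8%, 56.5% and 38.6%.

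Genes around the clusters were compared to see whether the whole stretch of chromosome moved. Before the clusters, within 1 Mb, 23 of 25 genes were tested, of which 9 were called higher and 3 lower (median log2 fold change 0.66), and after them 13 of 14, of which 4 were called higher and 1 lower (median -0.06), beside 24.5% higher and 22.0% lower over all genes tested. The nearest genes before PCDHA1 were ZMAT2 and the histidyl-tRNA synthetases HARS2 and HARS1, with log2 fold changes of 0.66, 1.52 and 0.49, of which HARS2 was called. The nearest after the gamma cluster, DIAPH1 and HDAC3, had -0.04 and -0.06. TAF7, a general transcription factor gene between the beta and gamma clusters, had 0.38. Large falls were seen further out, at ARAP3 (-5.27), HBEGF (-6.00) and NRG2 (-6.54).

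Of the 6 other rows between or over the members, 3 were tested and 1 was called. This was ENSG00000279047, a long noncoding RNA gene on the minus strand whose span, 141046260 to 141096402, overlaps the start of PCDHB2. Its counts were 3, 58 and 3 for Control sh and 185, 227 and 210 for VprBP sh, with log2 fold change 3.13 ± 0.72. Control sh replicate 2 stood apart, and without it the log2 fold change was 5.94. The minus-strand gene ENSG00000279726, which was not tested, was at 0 in each Control sh library and at 4, 7 and 31 counts in VprBP sh. Whether the counting used strand is not given in the sources used here, and without it reads of a member and of an antisense gene cannot be told apart.

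Among 26 genes with known roles in the transcription or silencing of clustered protocadherins, 5 were called higher and 2 lower, beside 24.5% and 22.0% over all genes tested. The median of their log2 fold changes was 0.17. DNMT1, the maintenance DNA methyltransferase, went from 5202.8 ± 196.9 to 23599.5 ± 407.8 normalized counts (SD, n = 3; log2 fold change 2.18), and DNMT3B, a de novo methyltransferase, from 1054.0 ± 108.7 to 439.2 ± 11.0 (-1.26). The cohesin subunit genes split, with STAG1 higher (1.04) and SMC1A lower (-1.06). Of the cohesin loader genes, MAU2 was called higher (1.15), while NIPBL had -0.95 and was not called. NIPBL was called lower with TMM factors (-1.05), in DESeq2 (-1.07) and without VprBP sh replicate 1 (-1.08). WIZ (1.09) and EHMT2 (1.00), which act in one histone H3K9 methyltransferase complex, were higher. STAG1, WIZ and EHMT2 lay at the limit of a 2-fold change and were not called with TMM factors (0.94, 0.99 and 0.91) or in DESeq2, and SMC1A was not called with library size alone (-0.85). STAG1 also lost its call without VprBP sh replicate 1 (0.92), and EHMT2 without Control sh replicate 1 (just under 1.00) and VprBP sh replicates 2 (0.95) and 3 (0.98). When the test itself was against a 2-fold change, MAU2, SMC1A, STAG1, WIZ and EHMT2 lost their calls, and DNMT1 and DNMT3B kept theirs. CTCF had a log2 fold change of 0.33, and SMCHD1, a silencer of the locus, of 0.24, and neither was called.

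Among 23 genes for binding partners and processing of protocadherins, 22 were tested, with 1 called higher, 6 lower and a median of -0.40, beside the same 24.5% and 22.0%. ADAM10, the protease that sheds the extracellular part, went from 13869.8 ± 326.2 to 3647.9 ± 102.5 (log2 fold change -1.93). The kinase genes PTK2 and PTK2B, whose products bind the constant domain, had -1.72 and -3.69, WASF2 and WASF3 of the WAVE complex had -1.17 and -6.12, and RET, a receptor that binds protocadherins, had -3.14. WASF2 was not called with library size alone (-0.96) or when the test itself was against a 2-fold change. ABI2, also of the WAVE complex, was the one called higher, at 1.29.

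Protocadherins outside the clusters were called in both directions. Of 12 listed, 6 had a row, and 1 was called higher, PCDH12 (1.66), and 3 lower, PCDH7 (-1.06), PCDH9 and PCDH19 (-4.58), beside 24.5% higher and 22.0% lower over all genes tested. PCDH7 lost its call with library size alone (-0.85), without Control sh replicate 2 (-0.97) or 3 (-0.91) and without VprBP sh replicate 1 (-0.93). Both PCDH7 and PCDH12 lost theirs when the test itself was against a 2-fold change. For PCDH9 the counts were 32, 73 and 86 under the control shRNA and 0 in every VprBP sh library. PCDH1, the most abundant of them and a neighbour of the gamma cluster, had a log2 fold change of -0.69. Of 5 classical or related cadherins tested, 4 were called lower and 0 higher, and CDH1 (-0.63) was not called. CDH2 and CDH13 had 0 counts in every VprBP sh library and 65 to 275 and 1491 to 2081 in Control sh. No difference between these lists and the members was tested.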

How the data were processed

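Libraries of 6 samples, 3 Control sh and 3 VprBP sh, took their group and replicate number from the sample titles. The authors aligned single-end reads to hg38, quantified them per gene in Partek and deposited estimated counts, in which reads shared between genes are divided, so that 30.5% of the members' values and 69.7% of all values were whole (within 0.01). Library totals were 18195949 to 26883948. The labels name a SMARTER kit and the study's methods a strand-specific kit. Strand use in counting is not given in the sources used here.

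Estimated counts were rounded, filtered with filterByExpr (minimum count 10), scaled by upper quartile factors and tested over all 16756 genes passing with edgeR 4.0.16 (quasi-likelihood, Benjamini-Hochberg adjustment over all of them, R 4.3.3). A call needed an adjusted p below 0.05 and a fold change over 2. Standard errors were taken as the log2 fold change over the root of the F statistic. For members with at most 10 summed counts in a group, ratios of summed counts are given with an exact 95% binomial interval, which covers counting error only, as do floors of 3 counts. Alternatives used DESeq2 1.42.0 and limma-voom 3.58.1. Members whose higher group averaged 10 or more normalized counts are given in every sample, the others mostly by ranges or means. The members, gene lists and tests were chosen with earlier results of these data known. Per-kb levels, shared exons and 50-base stretches use GENCODE 44, whose gene starts equalled those deposited for 56 of 58 members, and promoter windows come from RefSeq.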

Additional observations from a re-analysis of the deposited data

How the results depend on the processing

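Of the 36 members called, the same 36 were called with TMM factors, in DESeq2, with limma-voom, on unrounded values and with a replicate block, where 29 were again higher and 7 lower. The replicate numbers did not pair the samples, since the deviations of same-numbered samples correlated at -0.0644, 0.0162 and -0.0527 over 16756 genes, and the block moved the calls over the whole table from 7778 to 7686. Requiring at least 10 counts in every sample left 16 members tested, 8 called higher and 4 lower, because it removes genes near 0 in one group. It also gave 4690 calls in the whole table, 11 among genes around the clusters and 14 in the lists of regulators, partners, other protocadherins and cadherins together, against 18 and 22. A test against a 2-fold change also gave 11 and 14 there, and dropped PCDHB14 and PCDHGB3. With TMM factors, with library size alone and in DESeq2 the lists held 20, 20 and 21 calls. Without the filter on low counts 38 members were called higher and 7 lower.

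The log2 ratio of the summed alpha cluster was 2.98 with library size alone and 2.65 with DESeq2 size factors, and that of the gamma cluster 1.04 with library size alone. Leaving out each replicate in turn gave 29 to 32 members called higher and 7 lower each time, 7949 to 8142 calls in the whole table, 17 to 20 around the clusters, 21 to 23 in the lists, and log2 ratios of 2.74 to 2.83, 1.10 to 1.32 and 0.77 to 0.90 for the alpha, beta and gamma sums. Signs of genes not called turned for PCDHGA10, at 0.09 with library size alone, 0.01 with limma-voom and at -0.44 to 0.30 as single replicates were left out (0.30 without Control sh replicate 2), for PCDHGA1, at -0.63 to 0.51 in that way (0.51 without Control sh replicate 2), and for PCDHGA11, at -0.09 to 0.84 (-0.09 without Control sh replicate 3). Replicates 2 and 3 of each group were closer to each other than to replicate 1. The chi-square per degree of freedom between their counts was 2.49 in Control sh and 2.35 in VprBP sh. For pairs with replicate 1 it was 17.4 and 20.8 in Control sh and 26.9 and 29.3 in VprBP sh. Whether replicates 2 and 3 are independent samples is not given, and the SDs and p-values above treat them as such. With both summed into one sample 33 members were called higher and 7 lower. Depth limits genes whose counts are near 3 in a library, and the constant exons limit how far single alpha and gamma genes can be told apart.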
